A study of Mus musculus with 8 samples.

Results

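Genes of T, natural killer (NK) and B lymphocytes were followed in lung RNA of 8 mouse pups, measured on Affymetrix arrays with 1 array per pup. Of 37 listed genes, 35 had a probe set annotated to that gene alone, of 18193 genes so annotated, and for each the brightest probe set was taken. Lck and Tcf7 were not analysed here. All 8 pups were FVB/N mice of a line that carries SP-C-rtTA and (teto)7-FGF18. In such a line the surfactant protein C promoter drives, in the distal lung epithelium, an activator that turns on an FGF18 cassette in the presence of doxycycline. The 4 controls were D02, D40, D50 and D58 and the 4 cases D04, D34, D48 and D52. The study paired single with double transgenic pups over 4 litters and chose them on induction of the transgene, while the genotype field reads alike for all pups. The sources used here give neither age nor doxycycline schedule, nor the litter of each pup.

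T cells read antigen through a receptor whose signal is carried by the CD3 chains to the kinase ZAP-70, and B cells through surface immunoglobulin with CD79A and CD79B. NK cells and cytotoxic T cells kill with perforin and granzymes. In the lung these cells lie in the tissue and around airways, and in young animals they are still settling there. In RNA of a whole lung, fewer cells of a type and less RNA per cell cannot be told apart.

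The check of the labels came first. Fgf18 read log2 7.05, 7.76, 7.11 and 7.07 in the controls (D02, D40, D50, D58), and 10.82, 12.09, 9.82 and 7.66 in cases D04, D34, D48 and D52. The library labelled Case D52 therefore lay at the control level, and the test results are given with and without it. Abca3, a lipid transporter of alveolar type 2 cells, was the 1 gene of 12856 that passed the test below. It read 11.51, 11.56, 11.34 and 11.45 in controls and 10.54, 10.65, 10.49 and 10.27 in cases (-0.98, limma adjusted p = 0.0108). By this gene D52 lay with the cases, though the test that picked it counted D52 as a case. Fitted without D52, Abca3 differed by -0.90 (limma adjusted p = 0.0152). Sftpc, the surfactant gene of alveolar type 2 cells, had a mean of 14.58, as lung should. Array medians ran from log2 7.02 to 7.12, with D40, D04, D34 and D48 at 7.02 to 7.06 and the other 4 pups at 7.09 to 7.12. By Xist and Y-linked genes, D02, D04 and D34 were female. The number of arrays limits the precision.

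Lymphocyte genes gave weak signals in these lungs. A level counted as above background when its mean over the 8 pups exceeded log2 6.51, the 40th percentile of all probe sets. This held for 15 of the 35 measured genes (42.9%), against 70.7% of all 18193 genes. Among them were 5 of 12 T cell genes (Cd3d, Cd3e, Cd4, Cd8a and Zap70), 3 of 7 NK and cytotoxic genes (Gzma, Prf1 and Ccl5) and 7 of 14 B cell genes (Cd79b, Cd22, Ighm, Fcer2a, Ebf1, Vpreb3 and Fcmr). Neither recombinase gene, Rag1 or Rag2, reached it. For scale, 80 probe sets of olfactory and vomeronasal receptors, which lung should hardly use, had a median of 4.77 and a 95th percentile of 6.56, and 14 lymphocyte genes exceeded the latter. Just inside the limit lay Cd3d at 6.53 and Cd79b at 6.62, and just outside it Cd2 at 6.41 and Il7r at 6.39.

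Across the set, differences between cases and controls were small and mostly negative, and no gene passed the test. Of 35 genes, 30 had a case mean below the control mean, where 59.5% of all 18193 genes did, and 70.2% of the 5337 genes below the limit. The log2 differences ran from -0.37 (Ccr7) to 0.21 (Fcmr), with a median of -0.12, against -0.03 over all genes and -0.07 over genes below the limit. With each array centred on its median every difference moved up by 0.05, and 27 of 35 genes then lay below 0, against 43.0% of all genes and 57.2% of those below the limit. In limma with Benjamini-Hochberg adjustment, 0 of 15 genes above the limit passed the threshold of 0.05 (smallest adjusted p = 0.736), where 0.00778% of 12856 genes passed. Fitted without a filter, 0 of 35 passed (smallest adjusted p = 0.614, percentage over all genes 0.0055%). At an unadjusted p under 0.05 in that unfiltered fit, 9 of 35 genes were lower and 0 higher, against 6.06% lower and 1.7% higher over all genes. Of the 5337 genes below the limit, 599 were lower and 69 higher at that p. Groups did not overlap in 5 of the 35 genes, all lower in cases (Ccr7, Thy1, Gzma, Ccl5 and Ebf1), against 3.26% of all genes lower and 1.18% higher without overlap. Of the 5337 genes below the limit, 263 were lower and 36 higher without overlap. Among the 15 genes above the limit, 4 were lower and 0 higher at an unadjusted p under 0.05 (4.22% and 2.08% of 12856 genes). Among these 15, 3 did not overlap and were lower (2.57%, with 1.38% higher), and 11 lay below 0 (55.0%).

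**Figure D1:**
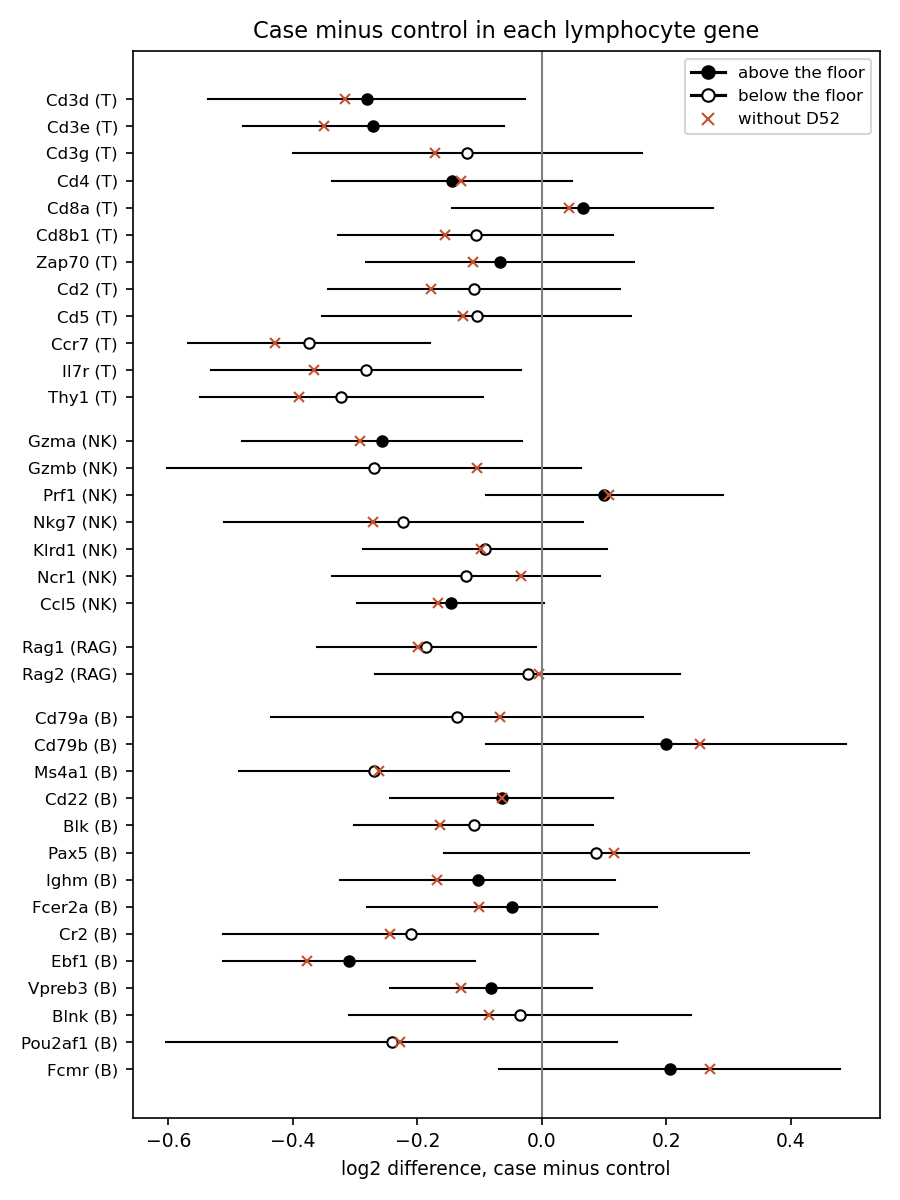
Log2 difference, case minus control, of each of the 35 measured genes (T, NK, recombinase RAG and B), with bars for the 95% interval of the limma fit and crosses for the difference without D52. Filled points lie above the intensity limit and open points below it. Most points lie left of 0, with Ccr7 at -0.37 and Fcmr at 0.21 as the ends.

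Leaving out the library labelled Case D52 again gave 0 of 15 genes past the threshold (limma, smallest adjusted p = 0.155), where 0.0467% of 12856 genes passed. Without a filter it was 0 of 35 (smallest adjusted p = 0.116), against 0.0165% of all genes. In that unfiltered fit 8 of 35 genes were lower at an unadjusted p under 0.05 and 0 higher, against 10.1% and 3.3% of all genes. Of the 5337 genes below the limit, 861 were lower and 79 higher at that p. The median difference over the 35 genes was then -0.16, and 30 lay below 0, against 59.6% of all genes and 71% of those below the limit. Groups did not overlap in 7 genes, the 5 above with Cd3e and Il7r, all lower, against 9.03% of all genes lower and 4.45% higher. Among the 15 genes above the limit, 4 were lower at an unadjusted p under 0.05 and 0 higher (8.13% and 4.57% of 12856 genes), 4 did not overlap and were lower (7.97%, with 5.72% higher), and 11 lay below 0 (54.9%).

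The CD3 chains, which carry the signal of the T cell receptor, were lower in cases without passing the test. Cd3e read log2 6.86, 6.69, 6.79 and 6.76 in D02, D40, D50 and D58, and 6.55, 6.43, 6.30 and 6.74 in D04, D34, D48 and D52. The 3 pups with high Fgf18 lay below each control, while D52 lay inside the control range. Its difference was -0.27 (SE 0.09, limma adjusted p = 0.736), and -0.35 without D52 (limma adjusted p = 0.167). Cd3d read 6.79, 6.47, 6.70 and 6.71 in the controls and 6.56, 6.07, 6.42 and 6.49 in the cases, with pups in the same order. Control D40 lay among the cases, and the difference was -0.28 (SE 0.11, limma adjusted p = 0.736), or -0.18 without case D34 and -0.35 without D40. Cd3g, below the limit, read 6.56, 6.09, 6.32 and 6.35 in controls and 6.42, 5.99, 6.06 and 6.36 in cases, a difference of -0.12 with overlapping groups.

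The CD3 genes form 1 cluster on chromosome 9, in which Cd3d and Cd3g are separated by 1337 bases and Cd3e and Cd3d by 11682 (RefSeq, GRCm38.p6). They are shown with Cd79a, whose product does the same work in the B cell receptor, since these genes define the lineages. Each line holds the 250 bases before a transcript start in RefSeq, 5′ to 3′ on the strand of the gene. RefSeq begins the gene itself upstream of that start for Cd3d and Cd3e, so that the last 17 and 52 bases of their lines lie within the gene. Capitals mark E-boxes (CANNTG, which reads as CANNTG on both strands), the sites of E proteins such as E2A and HEB. The windows are chr9:44981536-44981785 (plus strand), chr9:45009612-45009861 (minus), chr9:44980432-44980681 (minus) and chr7:24897247-24897496 (plus), from RefSeq.
Cd3d: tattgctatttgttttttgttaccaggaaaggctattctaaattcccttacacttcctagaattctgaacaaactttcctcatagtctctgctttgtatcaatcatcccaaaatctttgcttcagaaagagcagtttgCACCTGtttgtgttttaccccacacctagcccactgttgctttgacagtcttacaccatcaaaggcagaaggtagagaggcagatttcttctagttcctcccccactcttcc
Cd3e: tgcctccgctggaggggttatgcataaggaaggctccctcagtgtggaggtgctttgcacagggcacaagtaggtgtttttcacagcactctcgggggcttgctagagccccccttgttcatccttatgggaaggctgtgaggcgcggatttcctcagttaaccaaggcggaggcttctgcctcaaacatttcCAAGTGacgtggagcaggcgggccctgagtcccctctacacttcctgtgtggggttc
Cd3g: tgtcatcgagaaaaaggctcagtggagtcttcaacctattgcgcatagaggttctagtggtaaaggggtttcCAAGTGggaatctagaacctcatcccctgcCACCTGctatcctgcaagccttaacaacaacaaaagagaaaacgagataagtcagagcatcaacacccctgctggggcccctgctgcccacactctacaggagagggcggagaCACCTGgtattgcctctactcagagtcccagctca
Cd79a: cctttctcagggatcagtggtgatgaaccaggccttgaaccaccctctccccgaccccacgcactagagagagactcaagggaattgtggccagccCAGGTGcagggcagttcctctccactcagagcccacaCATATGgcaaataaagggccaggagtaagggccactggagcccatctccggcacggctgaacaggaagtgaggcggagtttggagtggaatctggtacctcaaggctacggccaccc
At least 1 E-box stood in a window of each of the 26 listed lymphocyte genes that have one in RefSeq, against 69.3% of 27025 genes. Counted by window, since a gene can have several starts, it was 29 of 34 against 66.2% of 32851. The octamer ATTTGCAT, read on either strand, stood before Vpreb3 and Blnk, and before 1.81% of all genes. Such matches describe the letters and do not show binding.

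Coreceptors and the kinase differed in sign, and none passed the test. Cd4, the coreceptor of helper T cells and in mice also found on some myeloid cells, read 7.11, 7.35, 7.03 and 7.05 in the controls (D02, D40, D50, D58) and 7.13, 6.91, 6.98 and 6.95 in cases D04, D34, D48 and D52. Case D04 lay inside the control range and the other 3 below it. The Cd4 difference was -0.14 (SE 0.09, limma adjusted p = 0.736), or -0.07 without control D40 and -0.19 without case D04. Its other probe set, also above the limit, differed by -0.01 (SE 0.10). Cd8a, the coreceptor of cytotoxic T cells, read 6.94, 6.62, 6.94 and 6.86 in controls and 6.83, 7.05, 6.77 and 6.97 in cases. The groups overlapped, with a difference of 0.07, and its 5 probe sets ranged from -0.13 to 0.16. Its neighbour Cd8b1, which encodes the partner chain 35934 bases away on chromosome 6, ran from 4.97 to 5.34 over all pups, below the limit. Zap70, the kinase that binds phosphorylated CD3 chains, read 8.90, 8.82, 8.89 and 8.82 in controls and 8.87, 8.88, 8.49 and 8.92 in cases. Case D48 alone lay low, and without it the difference turned from -0.07 to 0.03. The other Zap70 probe sets differed by 0.17 and, on the dimmest, by -0.23 (limma adjusted p = 0.743 and 0.662 over all probe sets).

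Ccr7, Thy1 and Il7r had differences as negative as those of Cd3d and Cd3e, but lay below the limit. Ccr7, the chemokine receptor that guides T cells into lymph nodes, read 5.65, 5.54, 5.53 and 5.36 in controls and 5.03, 5.12, 5.13 and 5.31 in cases. Every case lay below every control, by as little as the gap between D58 at 5.36 and D52 at 5.31. The difference of -0.37 (SE 0.09, 95% interval -0.57 to -0.18) had an unadjusted p of 0.00155 and an adjusted p of 0.614 in limma without a filter. Thy1, a surface protein of mouse T cells that lung fibroblasts also carry, read 6.31, 6.52, 6.26 and 6.24 in controls and 5.92, 5.82, 6.08 and 6.21 in cases, again without overlap. It differed by -0.32 (SE 0.10, limma adjusted p = 0.618). Il7r, the receptor for the survival signal IL-7, read 6.56, 6.38, 6.49 and 6.70 in controls and 6.31, 6.18, 6.01 and 6.50 in cases. Its 2 probe sets differed by -0.28 and -0.27, with D52 inside the control range on the brighter one.

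Of the remaining T cell genes, Cd2, an adhesion molecule, ran from 6.17 to 6.67, and Cd5, a brake on receptor signals, from 4.88 to 5.27. They differed by -0.11 and -0.10, with overlapping groups. Rag1 and Rag2, which cut DNA to assemble receptor genes in precursors of both lineages, lie 5723 bases apart on chromosome 2 and read 3.86 to 4.26 and 5.52 to 5.96, with differences of -0.19 and -0.02.

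**Figure D2:**
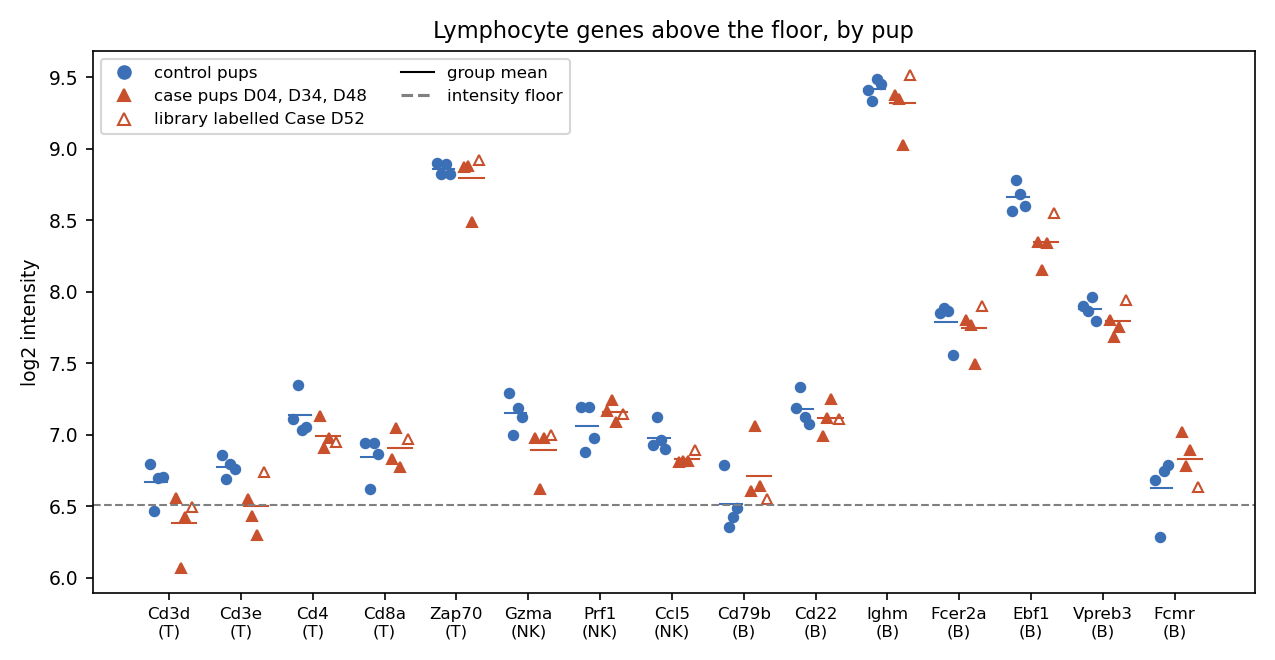
Log2 intensity of the 15 lymphocyte genes above the limit (dashed line at 6.51), with 1 point per pup, short lines for group means, and an open triangle for D52. Ebf1, Gzma and Ccl5 show no overlap between groups, and the Zap70 and Ighm case means are pulled down by 1 pup, D48.

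Among cytotoxic genes, granzyme A and a chemokine were lower without passing the test, and perforin was not. Gzma, a granule protease of NK and cytotoxic T cells, read 7.29, 7.00, 7.18 and 7.13 in the controls (D02, D40, D50, D58) and 6.98, 6.62, 6.98 and 7.00 in cases D04, D34, D48 and D52. The groups touched at 7.00 (D40 and D52), and the difference was -0.26 (SE 0.10, limma adjusted p = 0.736), or -0.17 without case D34. Ccl5, a chemokine made by activated T and NK cells and by other cell types, read 6.93, 7.13, 6.96 and 6.90 in controls and 6.81, 6.81, 6.81 and 6.89 in cases. Here too the groups lay close, at 6.90 in D58 and 6.89 in D52, and the difference was -0.15 (SE 0.07, limma adjusted p = 0.736), or -0.0975 without control D40. Prf1, the pore-forming perforin, read 7.19, 6.88, 7.20 and 6.98 in controls and 7.17, 7.25, 7.09 and 7.14 in cases, an overlap with a difference of 0.10, or 0.04 without control D40. Its dimmer probe set differed by -0.07.

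The other 4 cytotoxic genes lay below the limit and their groups overlapped. Gzmb, granzyme B, read 5.68 to 5.84 in controls and 5.76, 5.70, 5.50 and 4.99 in cases, so that D52 alone lay far below, and without it the difference of -0.27 became -0.10. Ncr1, the NK receptor NKp46, read 5.88 in D52 and 6.14 to 6.35 in the other pups, and its difference of -0.12 became -0.03 without D52. Nkg7, a granule membrane protein, differed by -0.22, and Klrd1, the CD94 chain of NK receptors, by -0.09.

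Of 14 B cell genes, 11 had a lower case mean, against 59.5% of all genes and 70.2% of those below the limit. The signalling partners of the B cell receptor had opposite signs, and no B cell gene passed the test. Cd79b read 6.79, 6.36, 6.43 and 6.49 in controls and 6.61, 7.06, 6.64 and 6.55 in cases, a difference of 0.20 (SE 0.13, limma adjusted p = 0.737) with control D02 inside the case range, and without case D34 it was 0.08. Cd79a, below the limit, read 6.55, 6.18, 6.35 and 6.53 in controls and 6.26, 6.11, 6.63 and 6.06 in cases, a difference of -0.14. In case D34 Cd79b was at its highest while Cd79a was below each control.

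Ighm, the heavy chain of immunoglobulin M, was covered by 11 probe sets, of which 10 had a lower case mean. The brightest read 9.41, 9.34, 9.49 and 9.45 in controls and 9.38, 9.35, 9.03 and 9.51 in cases, a difference of -0.10 (SE 0.10, limma adjusted p = 0.799) in which D48 alone lay low, and without D48 it was -0.0073. Its name carries the suffix x, by which Affymetrix marks probes that can match other transcripts. The Zap70 probe set that differed by 0.17 carries the same suffix. The next 2 Ighm probe sets, still above the limit, differed by -0.36 (SE 0.13) and -0.24 (SE 0.12), with adjusted p = 0.635 and 0.682 in limma over 45037 probe sets. These Ighm probe sets share 1 gene and are not replicates.

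**Figure D3:**
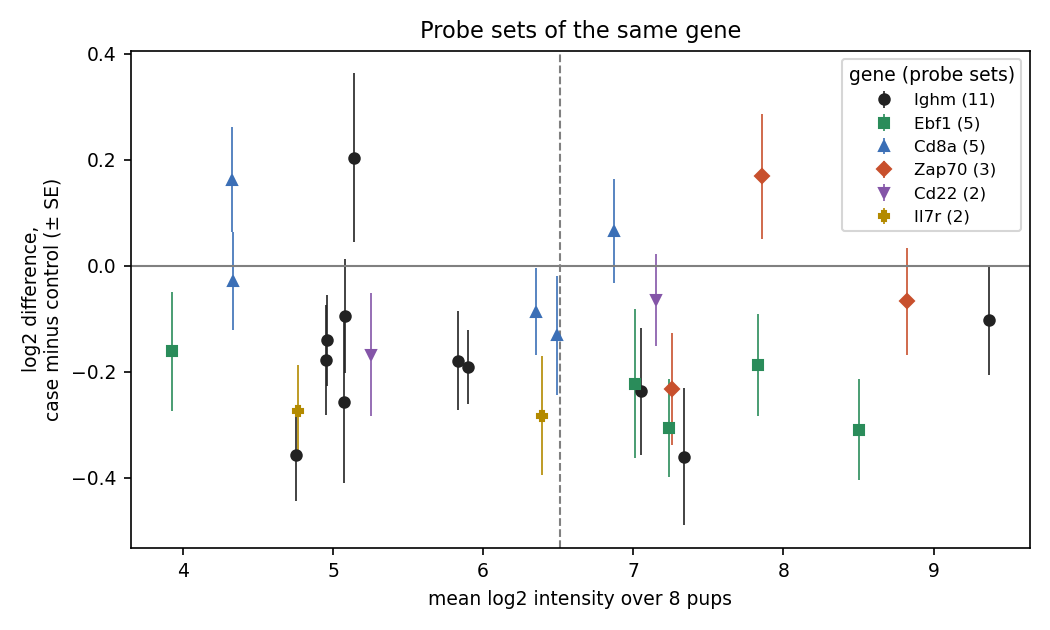
Log2 difference, case minus control, with bars of 1 SE, against mean log2 intensity for the probe sets of 6 genes with several, with the limit of 6.51 dashed. All 5 Ebf1 and 10 of 11 Ighm probe sets lie below 0, while those of Cd8a and Zap70 fall on both sides.

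Ebf1 had the most negative difference among genes above the limit. It encodes a transcription factor that commits cells to the B lineage, and it is also active in mesenchymal cells such as pericytes and adipocyte precursors. It read 8.57, 8.78, 8.69 and 8.60 in controls and 8.35, 8.15, 8.34 and 8.55 in cases. Every case lay below every control, with D52 just under D02. The difference was -0.31 (SE 0.09, 95% interval -0.51 to -0.11), with an unadjusted p of 0.00682 and an adjusted p of 0.736 in limma, and -0.38 without D52 (adjusted p = 0.155). The case mean was lower on all 5 of its probe sets, by -0.31 to -0.16. Pax5, the factor that maintains B cell identity, went the other way below the limit, at 5.62 to 6.12 in controls and 5.89 to 6.02 in cases, with 0.09 and 0.23 on its 2 probe sets.

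Among surface proteins of B cells, differences ran from -0.27 (Ms4a1) to 0.21 (Fcmr), and none passed the test. Cd22, an inhibitory receptor, read 7.19, 7.34, 7.12 and 7.07 in controls and 6.99, 7.12, 7.25 and 7.11 in cases, a difference of -0.06. Fcer2a, the low-affinity IgE receptor CD23, read 7.85, 7.89, 7.87 and 7.56 in controls and 7.81, 7.77, 7.50 and 7.90 in cases, a difference of -0.05 whose sign turned when arrays were centred on their medians (0.0019). Its dimmer probe set, below the limit, differed by 0.17. Groups of the brighter probe sets overlapped in Cd22 and Fcer2a. Fcmr, the receptor for IgM, read 6.68, 6.28, 6.75 and 6.79 in controls and 7.02, 6.78, 6.89 and 6.64 in cases, the most positive difference of the set at 0.21 (SE 0.12, limma adjusted p = 0.736). Control D40 was the lowest pup for it and D52 the next, and without D40 the difference was 0.09. Ms4a1, the B cell surface protein CD20, was below the limit and read 5.91, 5.48, 5.62 and 5.57 in controls and 5.33, 5.33, 5.49 and 5.36 in cases, a difference of -0.27 in which case D48 reached past control D40. Cr2, the complement receptor CD21, ran from 3.66 to 4.51 over all pups and differed by -0.21, or by -0.09 without case D48.

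Vpreb3, which assists assembly of the precursor B cell receptor, read 7.90, 7.86, 7.96 and 7.79 in controls and 7.80, 7.69, 7.76 and 7.94 in cases, a difference of -0.08 with overlap. The signalling genes Blk, a Src-family kinase, and Blnk, an adaptor, differed by -0.11 and -0.04 below the limit. Pou2af1, a coactivator at octamer sites, differed by -0.24 and ran from 4.77 to 5.54. Groups overlapped in these 4 genes.

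By class, the median log2 difference of all measured genes was -0.13 for T cells (11 of 12 below 0), -0.15 for NK and cytotoxic cells (6 of 7) and -0.09 for B cells (11 of 14). Over all 18193 genes the median was -0.03 with 59.5% below 0, and over genes below the limit -0.07 with 70.2%. Counting genes above the limit alone, the class medians were -0.14, -0.15 and -0.06, against -0.01 over all 12856 genes (55.0% below 0). Leaving out control D40 moved these 3 medians to -0.08, -0.0975 and -0.02, and leaving out case D48 moved the B cell median to -0.0073. The most negative medians with 1 pup left out were -0.19 (T cells, without D04), -0.17 (NK and cytotoxic, without D58) and -0.10 (B cells, without D52). Without genes that other cells also express, the T cell median was -0.17 (Cd4 left out) and the B cell median -0.06 (Ebf1 left out). The NK and cytotoxic median was -0.08 without Ccl5, from Gzma (-0.26) and Prf1 (0.10) alone. Without D52 the 3 medians were -0.13, -0.17 and -0.10. With arrays centred the 3 medians of genes above the limit were -0.10, -0.10 and -0.01. In male pups alone, a comparison of 3 controls with 2 cases added after the data were seen, they were -0.17, -0.11 and -0.02, and female pups held 1 control. Differences between the classes were not tested.

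The pups did not line up by group alone. The median shift of the 12 T cell genes from the control mean was 0.09 in D02, -0.16 in D40, 0.02 in D50 and 0.0007 in D58. Cases D04, D34, D48 and D52 stood at -0.05, -0.31, -0.26 and -0.03. Control D40 thus lay below cases D04 and D52, and D34 and D48 lay lowest. For B cell genes the shift was -0.16 in D40, below all 4 cases, which ran from -0.11 (D04) to 0.0061 (D52). For NK and cytotoxic genes the cases ran from -0.17 (D04) to -0.09 (D52) and the controls from -0.08 to 0.08. Only the gap between D58 at -0.0778 and D52 at -0.0857 kept the groups apart. The array medians of these pups lay further apart, at 7.1176 in D58 and 7.0909 in D52. Above the limit alone the groups overlapped, since D40 stood at -0.15 for the 3 NK and cytotoxic genes there and D52 at -0.09. For the 7 B cell genes above the limit D40 stood at -0.02, inside the range of the cases. Over the 35 genes, D34 was the lowest pup in 12, D48 in 9 and D40 in 7. D02 was the highest in 11 and the lowest in 0. All genes below the limit had their lowest shifts in the same pups (D48 -0.12, D34 -0.10 and D40 -0.06) and their highest in D02 (0.03). Leaving out 1 pup moved the difference by over 1.5 times in 28 of the 35 genes. In the other 7 (Ccr7, Cd3e, Ebf1, Il7r, Ms4a1, Rag1 and Thy1) no pup did. Neither this count nor those of lowest and highest pups were made over all genes.

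**Figure D4:**
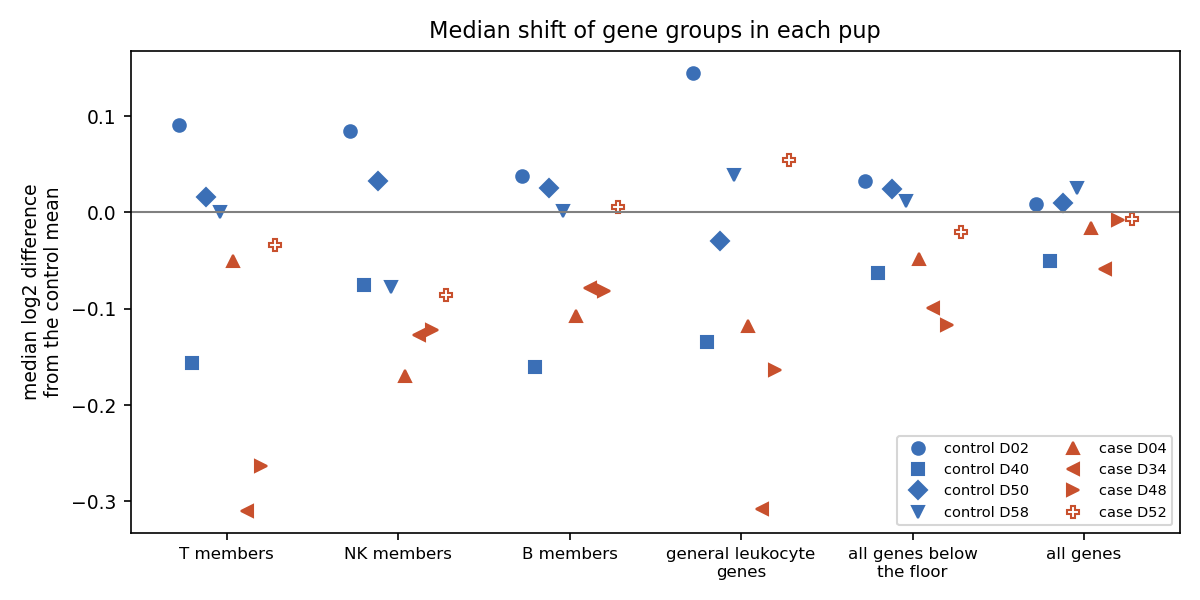
Median log2 difference from the control mean in each pup, for the measured T, NK and B cell genes, 12 general leukocyte genes, all genes below the intensity limit and all genes. D34 and D48 lie lowest for T cell genes (-0.31 and -0.26), and control D40 lies below 0 in each of the 6 sets.

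Some features of the arrays and of other cells followed this order and others did not. Genes below the limit shifted by -0.06 in D40 and by -0.10 (D34) and -0.12 (D48), and by 0.01 to 0.03 in the other controls. These arrays and that of D04 had the 4 lowest medians. The 12 genes of all leukocytes had a median difference of -0.16, with 10 of 12 below 0 (59.5% of all genes). In limma 1 was lower at an unadjusted p under 0.05 (6.06% of all genes) and 0 passed. Without D52 the median was -0.22, with 12 of 12 below 0 (59.6%), 3 lower at that p (10.1%) and 0 passing. Their shift was -0.31 in D34, -0.13 in D40 and 0.15 in D02, and their mean level was 8.32 to 8.54 in controls and 8.16 to 8.47 in cases. Heart and skeletal muscle genes shifted by -1.43 (D34), -0.66 (D04), -0.47 (D48) and, in case D52, 0.23, with mean levels of 8.83 to 9.50 in controls and 7.65 to 9.28 in cases. Their median was -0.74, with 4 of 15 lower at an unadjusted p under 0.05 (6.06% of all genes). Without D52 it was -1.0001, with 12 lower (10.1% of all genes). Neutrophil genes stood at -0.21 in D34, -0.24 in D48, -0.12 in D40 and 0.09 in D02. Red blood cell genes were lowest in D34 (-0.36) and D48 (-0.35), though among controls D02 was the lowest (-0.11). Endothelial and stromal genes were lowest in D34 (-0.33) and highest in D40 (0.08). Lung epithelium genes were lowest in D34 (-0.57), while macrophage and monocyte genes stood at 0.03 there. Medians were -0.08 for macrophage and monocyte genes (7 of 12 below 0), -0.10 for neutrophil genes (9 of 10), -0.13 for dendritic and mast cell genes (9 of 11), -0.17 for red blood cell genes (6 of 7) and -0.12 for endothelial and stromal genes (9 of 10). Lung epithelium genes had -0.24 (10 of 12), and Abca3 alone of all these passed. The part of these in the lymphocyte values was not tested.

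Thymus lies beside the lung, so its markers were read as well. The thymic epithelium genes Foxn1 and Psmb11 had means of 5.02 and 4.08, and the thymocyte genes Ptcra and Dntt 5.88 and 5.25, all below the limit. Above it lay 2 of 6 thymic epithelium genes, Ccl25 and Krt5, and 3 of 9 thymocyte genes, Cd1d1, Themis and Arpp21. Among the 9 measured thymocyte genes were Rag1, Rag2 and Cd8b1 of the lymphocyte set, and Themis and Dntt of the further lists below. The 9 had a median difference of -0.02, with mean levels of 6.09 to 6.19 in controls and 6.08 to 6.10 in cases. The 6 thymic epithelium genes had -0.04, with 5.88 to 6.02 in controls and 5.81 to 5.94 in cases.

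Further lymphocyte genes, listed for their known roles, were read in the same fit, and none passed. Some were very bright, such as Sdc1 (11.71), Xbp1 (11.62) and Gimap4 (11.23), and which cells gave these signals was not tested. Over all genes 59.5% lay below 0, and 70.2% of those below the limit. Of 28 other T cell genes, 19 lay below 0 (median -0.06, and -0.08 without D52), and 0 of 17 above the limit passed in limma, with 1 lower and 0 higher at an unadjusted p under 0.05, where 4.22% and 2.08% of all genes were. Gimap3, a GTPase of lymphocyte survival, differed by -0.22 (adjusted p = 0.736), the adaptor Lat by -0.12 and the transcription factor Gata3 by -0.28. Of 18 other NK and cytotoxic genes, 16 lay below 0 (median -0.11), and 0 of 6 above the limit passed, with 0 at an unadjusted p under 0.05. Without D52, 18 of 18 lay below 0 (median -0.14), against 59.6% of all genes and 71% of those below the limit. In that unfiltered fit 3 of the 18 were lower at an unadjusted p under 0.05, against 10.1% of all genes and 861 of the 5337 below the limit. None of the 18 passed. Cd7 differed by -0.11, the adhesion molecule Ncam1, which nerve and other cells also express, by -0.38 and the granzyme inhibitor Serpinb9 by -0.09. Of 25 other B cell genes, 20 lay below 0 (median -0.12, and -0.11 without D52). Above the limit 0 of 14 passed, with 1 lower at an unadjusted p under 0.05. Without a filter 3 of 25 were lower at that p and 0 higher, against 6.06% and 1.7% of all genes. Of the 5337 genes below the limit, 599 were lower and 69 higher. The T and NK lists then had 2 of 28 and 0 of 18 lower. Groups did not overlap in Spib and Fcrl1, both lower and below the limit, against 3.26% of all genes and 263 of the 5337 below the limit. The tetraspanin Cd37 differed by -0.20 (limma adjusted p = 0.736), the adaptor Pik3ap1 by 0.22 and lymphotoxin beta (Ltb) by -0.30. Of 6 chemokine and cytokine genes (Cxcl13, Cxcl12, Il7, Tnfsf13b, Tnfsf11 and Lta), 5 lay below 0 (median -0.04, and -0.05 without D52). Above the limit 0 of 4 passed, with 0 at an unadjusted p under 0.05. Lta, below the limit, had the most negative difference of the 6 (-0.17). The B cell attractant Cxcl13 differed by -0.14, the B cell survival factor Tnfsf13b by -0.04 and Il7, the ligand of Il7r, by 0.03.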

How the data were processed

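Total lung RNA of each pup was labelled with biotin and hybridised, per the labels' protocols. The authors deposited 1 linear intensity per probe set and array, for 45101 in all. Software was affy, per the submitters' processing notes. The sources used here do not give how they summarised, background-corrected and normalized. Deposited too was a column of log2 ratios, which equals case D04 over control D02 and was not used.

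Intensities were taken to log2, and 64 Affymetrix control probe sets were left out. The platform annotation gave 34945 probe sets 1 gene symbol, 932 several and 9160 none. Probe sets whose mean fell under the 40th percentile (log2 6.51) were left out, and the brightest per gene gave 12856 genes. Genes below that limit were read from a fit without a filter (18193 genes), and single probe sets from a fit over 45037. Detection calls were not used here. Case and control were compared with limma 3.58.1 in R 4.3.3, without a block for litters, at a Benjamini-Hochberg adjusted p of 0.05. The fit was tested on simulated data. Alternatives changed the filter, normalization, probe set, moderation, array weights, sex term and threshold, and left out each pup. Fgf18 is the check of the labels.

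The genes and lists were chosen with earlier results of these data known. Lymphocyte genes above the limit are named with every value and, of each further lymphocyte list, the 3 with the smallest unadjusted p above the limit.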

Additional observations from a re-analysis of the deposited data

Results flagged for a closer look

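In 7 of 70 groups of 4 pups, 1 pup stood apart by Dixon's ratio of its gap to the whole range. Chance gives about 1 in 20 groups. Among cases the ratio was 0.879 for Zap70 (D48 low), 0.917 for Cr2 (D48 low), 0.939 for Gzma (D34 low), 0.949 for Ccl5 (D52 high) and 0.831 for Pax5 (D52 low). Among controls it was 0.885 for Rag1 and 0.890 for Fcer2a, with D58 low in both.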

How the results depend on the processing

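With all pups 0 lymphocyte genes passed under each alternative, and without D52, a count added after the data were seen, 0 passed under each alternative run there. Over 405 member values under alternatives, the sign held in 392 and turned in 13, which belong to 7 genes. It turned under array weights for Cd4 (0.0081), Cd8a (-0.0523) and Fcer2a (0.0031), and with arrays centred for Fcer2a (0.0019). With 1 pup left out in turn, the difference ran from -0.0087 to 0.11 for Cd8a, -0.11 to 0.0331 for Zap70, -0.0849 to 0.06 for Rag2, -0.0050 to 0.16 for Pax5, -0.12 to 0.0338 for Fcer2a and -0.13 to 0.0430 for Blnk. The cause was not tested. Over all genes, 1 passed in the main setting, 0 with the mean over probe sets, 16 with array weights, 2 with a sex term and 0 to 6 with 1 pup left out. Without D52, 6 passed, and it was 3 without a filter, 11 with the 20th percentile, 10 with arrays centred, 2 with the mean over probe sets, 3 with trended and robust moderation, 198 with array weights, 1 with a sex term and 37 at an adjusted p under 0.10. The T cell median was -0.0672 with the 60th percentile, where Zap70 alone remained. The B cell median ran from -0.10 to -0.0073 with 1 pup left out, the latter without D48. Members above background numbered 29 with the 20th percentile and 5 with the 60th. With the 60th, no NK gene was left. No paired analysis was possible because no label says which litter a pup came from. Low signal limits what these arrays can show for the 20 genes below the limit.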
